A study of Mus musculus with 6 samples.

Results

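Lung endothelial cells (ECs) that carried transcripts of the cell division cycle were described in cells sorted at embryonic day 15.5 (E15.5), at embryonic day 18.5 (E18.5) and on day 8 after birth (P8), and the question was which kind of vessel these cycling cells belonged to. A barcode was a member when it held at least 700 genes, 0.5% to 10% mitochondrial UMIs (unique molecular identifiers, each standing for 1 captured RNA molecule), at least 3 UMIs over the EC genes Pecam1, Cdh5 and Cldn5, at most 2 UMIs over the fibroblast collagens Col1a1 and Col3a1, at least 2 UMIs of Top2a and at least 1 UMI of Mki67. Of 26285 ECs in the 3 libraries, 2174 met the rule. They were 1432 of 8911 ECs at E15.5, 403 of 9083 at E18.5 and finally 339 of 8291 at P8. The whole series held 63659 barcodes in 6 libraries.

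All 3 libraries came from Cxcl12DsRed/+ mice, in which 1 copy of the chemokine gene Cxcl12 is disrupted by an inserted DsRed reporter, so every animal kept 1 intact copy. Cells pooled from between 2 and 4 lungs were sorted as DsRed+, CD31+ (the EC protein PECAM1), EpCAM- and CD45-. The sort takes ECs with an active Cxcl12 promoter and selects against epithelial cells and leukocytes. Red blood cells lack CD45, so the CD45 gate does not remove them, which leaves that to the DsRed and CD31 gates. ECs without the reporter signal were not sampled, so each share below is a share of sorted ECs. Each age had 1 library, so age and library cannot be told apart and no test between ages was possible. The intervals given are 95% counting intervals, exact Clopper-Pearson for shares and exact Poisson for levels. They do not cover the spread between animals, and those of levels do not cover the spread between cells either.

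The lung vasculature grows by division of ECs while its branches take on arterial, venous, capillary and lymphatic identities. Arterial ECs line the conducting vessels, general capillary cells (gCaps) form most of the capillary bed and can divide to renew it, and alveolar capillary cells (aCaps) are large, thin cells specialised for gas exchange. Top2a encodes the topoisomerase that untangles chromosomes before mitosis and Mki67 the Ki-67 protein that coats mitotic chromosomes, and both transcripts are nearly absent from resting cells.

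The members held a median of 8, 9 and 8 Top2a UMIs and of 3, 5 and 4 Mki67 UMIs, in the order E15.5, E18.5, P8 that all such series follow here. These values chose the cells and are given as a description. Just inside the Top2a limit stood 107, 37 and 29 cells with exactly 2 UMIs, and just outside it 147, 50 and 49 cells with 1 Top2a UMI and some Mki67. Another 319, 76 and 52 ECs had enough Top2a but no Mki67. ECs with no UMI of either gene served as the comparison and are called quiescent here for that reason alone. They numbered 6040, 8124 and 7531, and the 1439, 556 and 421 ECs in between entered neither group. Quiescent cells still held RNA of a G2/M gene list, 400, 134 and 111 CPM in sum (CPM is explained below). The comparison group thus held more of this cell cycle RNA at E15.5 than later. A single barcode was a member in both the E15.5 and the P8 library, among the 40 barcodes which those libraries shared.

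The cycling share fell across the 3 libraries in its point values, and the step lay between E15.5 and E18.5. Members made up 16.1% of ECs at E15.5 (interval 15.3% to 16.8%), 4.44% at E18.5 (4.02% to 4.88%) and 4.09% by P8 (3.67% to 4.54%). The E15.5 interval lay above both others, and the E18.5 and P8 intervals overlapped. The libraries differed in depth, with a median of 8455, 5636 and 5631 UMIs per EC, and deeper cells pass a UMI limit more easily. With each cell thinned to 3000 UMIs the same rule found 486 of 8816 ECs at E15.5 (5.51%, 5.05% to 6.01%), 213 of 8171 at E18.5 (2.61%, 2.27% to 2.98%) and then 154 of 7539 at P8 (2.04%, 1.74% to 2.39%). The ratio of the E15.5 to the E18.5 share was 3.62 at full depth and 2.11 at equal depth.

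**Figure D1:**
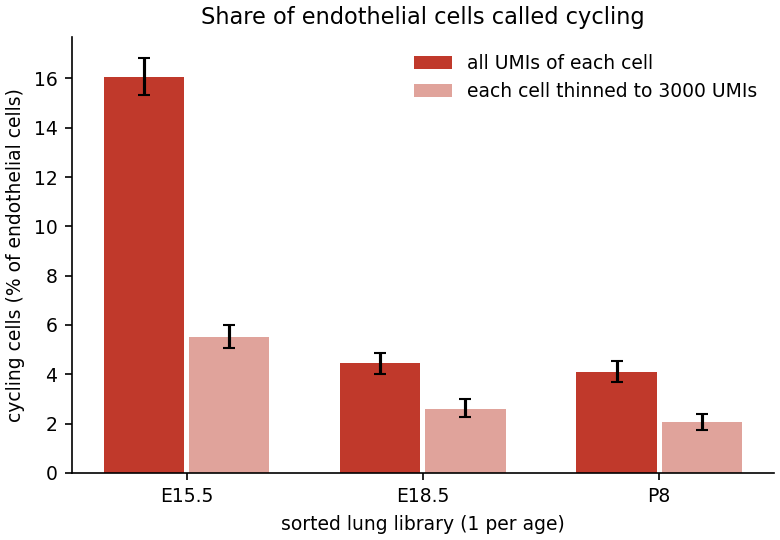
Cycling cells as a percentage of sorted ECs in the 1 library of each age, with all UMIs of each cell (dark bars) and with each cell thinned to 3000 UMIs (pale bars); whiskers are 95% Clopper-Pearson intervals. The E15.5 bar stands above the others at both depths, at 16.1% and 5.51%.

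Cycling cells were also richer in RNA counts than quiescent cells of the same library, with a median of 13440.5 against 7610.5 UMIs at E15.5, 9827 against 5450 at E18.5 and lastly 11442 against 5458 at P8. Doublet calls moved with the cycling state too. Scrublet, which scores barcodes that may hold 2 cells, marked 5.17%, 20.6% and 20.6% of cycling cells and 0.894%, 5.45% and 6.28% of quiescent cells. The cut-offs differed by library: its own threshold at E15.5, and the top 7% of scores at E18.5 and P8, where that threshold marked none. These shares can therefore not be compared between ages. Because of the difference in depth, all per-cell comparisons of vessel identity were made on cells thinned to 3000 UMIs, which kept 1427, 397 and 333 of the cycling cells and left out 5, 6 and 6.

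Vessel identity was read from short gene lists. A cell was called arterial-positive with 2 or more thinned UMIs over Gja4 and Gja5 (connexins of arterial junctions), Hey1 (a transcription factor downstream of Notch) and Bmx (an arterial tyrosine kinase). The gCap list was Gpihbp1 (which holds lipoprotein lipase on the capillary wall), Aplnr (the apelin receptor) and Kit (the stem cell factor receptor). The aCap list was Car4 (a membrane carbonic anhydrase), Apln (the ligand apelin) and Ednrb (an endothelin receptor), and the lymphatic list Prox1 (the lymphatic master regulator), Ccl21a (a lymphatic chemokine), Mmrn1 and Reln. A cell could carry several classes, so a class is a range of counts and not a cell type. The paper reports that differentiated gCaps and aCaps appeared later than E15.5. At E15.5 the capillary names, and the word identity, therefore stand for counts over these lists only.

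Cycling ECs were less often arterial-positive than quiescent ECs in all 3 libraries. At E15.5, 33.3% of cycling cells (30.8% to 35.8%) and 73.3% of quiescent cells (72.2% to 74.4%) were arterial-positive. At E18.5 the shares were 35.01% (30.3% to 39.9%) and 71.03% (69.97% to 72.1%). At P8 they were 43.5% (38.1% to 49.1%) and 70.9% (69.8% to 71.96%). The intervals were far apart at each age, and the difference was -40.04 percentage points at E15.5 (-43.6 to -36.4), -36.01 at E18.5 (-41.7 to -30.04) and -27.3 in the P8 library (-33.8 to -20.7). Cells just under the limit, with 1 arterial UMI, numbered 257, 85 and 85 among the cycling cells. Without thinning, 60.4%, 62.5% and 78.5% of cycling and 86.8%, 80.3% and 83.9% of quiescent cells were arterial-positive. As a background level, 1.83% of the mesenchymal cells (10 or more UMIs of the 2 collagens) of the E15.5 library (28 of 1531, median 7711 UMIs) were arterial-positive at the same 3000 UMIs.

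The list rested mainly on 1 gene: Gja4 gave 78.2%, 59.6% and 74.4% of the arterial UMIs in arterial-positive cycling cells. Counted over Gja5, Hey1 and Bmx alone, the difference was -17.2, -24.1 and -14.7 points.

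Capillary identity moved the other way, though less evenly. The gCap-positive share of cycling cells was 31.3% at E15.5 (28.9% to 33.7%), 60.5% at E18.5 (55.5% to 65.3%) and 76.3% by P8 (71.3% to 80.7%), against 14.9%, 38.7% and 68.5% of quiescent cells. The cycling cells were ahead by 16.3 points at E15.5 (12.98 to 19.7), 21.8 at E18.5 (15.6 to 27.7) and only 7.80 at P8 (1.75 to 13.4). The P8 difference rested on the limit chosen: with 3 UMIs required in place of 2 it was -1.49 points (-8.20 to 5.14), and at E15.5 the same stricter limit gave 7.86 points. In mesenchymal cells the gCap-positive share was 0.0653% at E15.5 (1 of 1531), so these shares stand above background.

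Alveolar capillary identity differed less with cycling. At E15.5, 2.52% of cycling and 2.28% of quiescent cells were aCap-positive, a difference of 0.242 points (-0.920 to 1.56), and these cells held mostly Ednrb, with 2 Car4 UMIs in all among 36 cycling cells. At E18.5 the shares were 15.9% and 16.1%, a difference of -0.234 points (-4.56 to 4.58). At P8 they were 18.9% and 25.6%, a difference of -6.69 points (-11.8 to -1.03), but the 3 genes of the list did not go the same way there. Ednrb had a UMI in 16.2% of cycling (12.4% to 20.6%) and 26.3% of quiescent cells (25.3% to 27.4%), Car4 in 29.4% (24.6% to 34.6%) and 22.97% (21.98% to 23.99%), and Apln in 15.3% (11.6% to 19.6%) and 10.2% (9.45% to 10.9%). Counted as cells with at least 1 UMI, only Ednrb was thus lower in cycling cells at P8, while Car4 and Apln were higher. The class needs 2 UMIs, however. In summed level (CPM, explained below) Car4 was lower in cycling cells at P8, at 233 (219 to 247) against 274 (269 to 278). Which gene carried the lower aCap-positive share was not tested. Mesenchymal cells were aCap-positive in 0.914% of cases at E15.5 and 7.64% at E18.5 (12 of 157 cells), where Ednrb had a UMI in 15 of them, Car4 in 1 and Apln in 0, so this share is not a background level for Car4 and Apln.

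**Figure D2:**
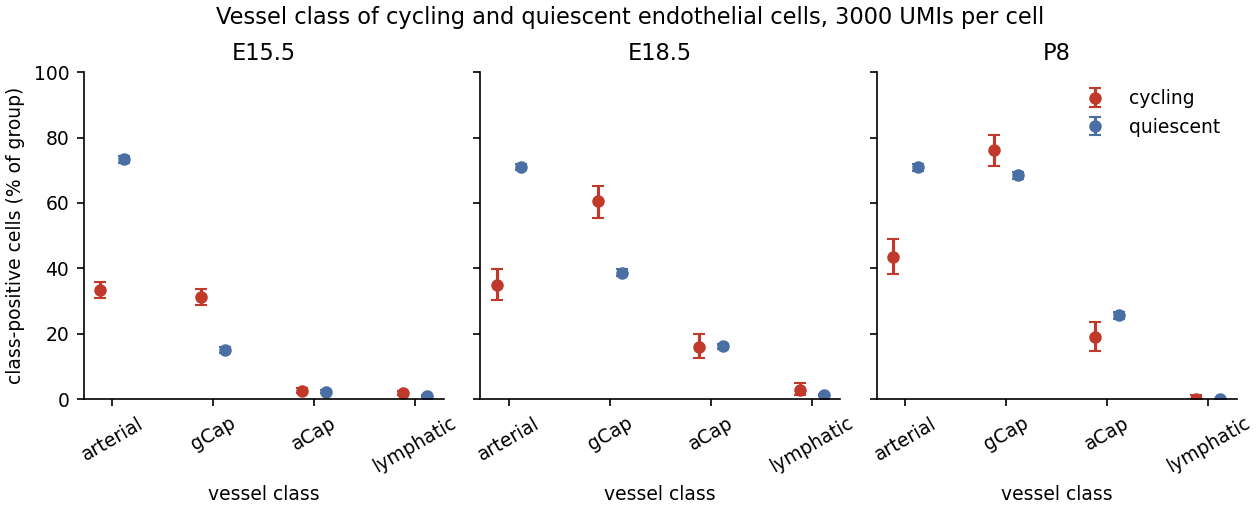
Percentage of cycling (red) and quiescent (blue) ECs positive for each vessel class at 3000 UMIs per cell, 1 panel per library; whiskers are 95% Clopper-Pearson intervals. Red points lie below blue for the arterial class in all 3 panels, and above blue for gCap at E15.5 and E18.5 by the widest margins.

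Lymphatic cells were few among the members. The lymphatic list was positive in 25 cycling cells at E15.5 (1.75%, 1.14% to 2.58%) and 11 at E18.5 (2.77%, 1.39% to 4.90%), against 0.923% and 1.31% of quiescent cells. The differences of 0.829 points (-0.0622 to 1.88) and 1.46 points (-0.210 to 3.84) had intervals that reached below 0. At P8, 0 of 333 cycling cells were lymphatic-positive, which allows a share of up to 0.901% by the limit of 3 counts (Clopper-Pearson upper bound 1.10%), and 3 of 6799 quiescent cells were. No mesenchymal cell was lymphatic-positive at E15.5, 0 of 1531, which allows up to 0.196% by the same limit (upper bound 0.241%). Prox1, the defining gene, had a UMI in 12, 9 and 1 of the thinned cycling cells, and Mmrn1 in 156 at E15.5 and 22 at E18.5, so most Mmrn1-bearing members of the E15.5 library had no Prox1 UMI. The venous list (Slc6a2, Nr2f2 and Nrg1) was positive in 12, 3 and 0 cycling cells, 0.841% and 0.756% at the embryonic ages against 0.537% and 0.801% of quiescent cells, with overlapping intervals. Mesenchymal cells were positive in 2.29% of cases at E15.5 and 21.7% at E18.5, and Nr2f2 alone had a UMI in 13.2% and 42.04% of them, so mesenchymal cells gave no background level for this list.

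Read the other way round, cells with only gCap identity were cycling more often than cells with only arterial identity. Of ECs positive for the arterial list alone, 8.31% cycled at E15.5 (414 of 4982), 1.99% at E18.5 (71 of 3572) and 3.05% in the P8 library (35 of 1146). Of ECs positive for the gCap list alone, 31.2% cycled at E15.5 (368 of 1179), 12.8% at E18.5 (146 of 1143) and 9.16% in the P8 library (111 of 1212). The intervals of these classes did not meet at any age, 7.56% to 9.11% against 28.6% to 33.9% at E15.5 and 2.14% to 4.22% against 7.59% to 10.9% at P8. The ratio of the gCap-only to the arterial-only share was 3.76, 6.43 and 2.999. With the cycling rule applied to thinned cells it was 3.004, 5.87 and 2.54, and with the Scrublet calls left out 3.89, 9.06 and 3.37.

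Cells that carried both identities lay between. Those positive for the arterial and gCap lists cycled in 13.02% of cases at E15.5 (59 of 453), 3.37% at E18.5 and 3.13% by P8, where this was the largest group of ECs with 3040 cells. At P8 the double-positive share (interval 2.54% to 3.81%) could not be separated from that of arterial-only cells. ECs positive for none of the 3 lists cycled in 27.5% (25.6% to 29.5%), 11.4% (8.93% to 14.4%) and 13% (8.89% to 18.1%) of cases, intervals that overlapped those of the gCap-only cells. They made up 38.5% of all cycling cells at E15.5 (550 of 1427), 16.1% at E18.5 and 8.71% by P8. Among quiescent cells the same category held 16.9%, 5.99% and 2.68%.

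Cells positive for the aCap list alone cycled in 25% of cases at E15.5 (15 of 60, interval 14.7% to 37.9%), 3.78% at E18.5 (18 of 476) and 2.64% by P8 (10 of 379). Those with both capillary identities cycled in 29.2%, 7.32% and 7.29%. At E18.5 and P8 the aCap-only share thus lay below the gCap-only share, with intervals of 2.26% to 5.91% against 10.9% to 14.8% at E18.5 and 1.27% to 4.80% against 7.59% to 10.9% at P8. At both ages its interval overlapped that of the arterial-only cells.

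**Figure D3:**
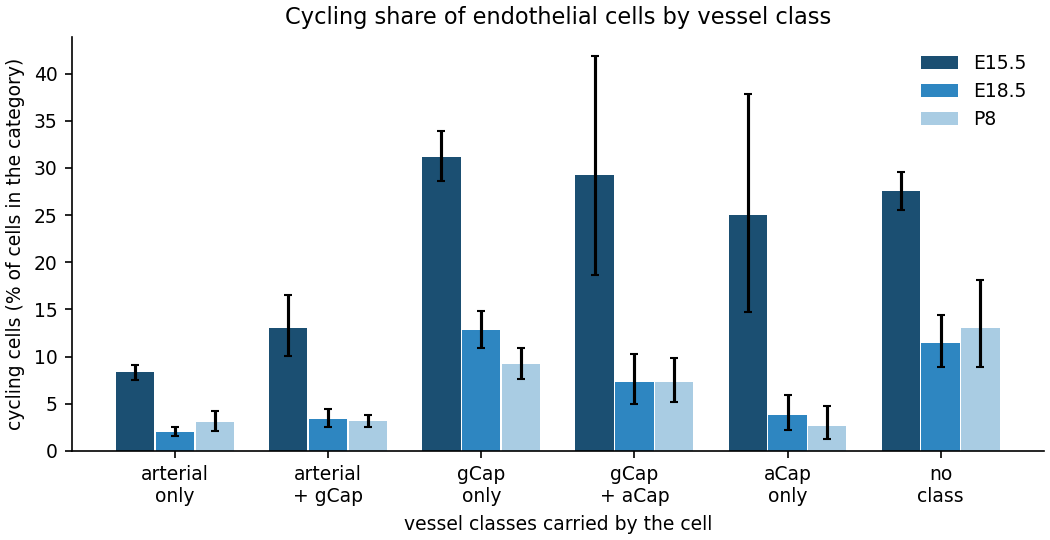
Percentage of ECs that were cycling in each category of vessel identity, for the 1 library of each age; whiskers are 95% Clopper-Pearson intervals. In each library the gCap-only bar is several times the arterial-only bar, 31.2% against 8.31% at E15.5.

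Summed expression gave the same arterial pattern gene by gene. Levels are CPM, the UMIs of a gene scaled to the same library total, summed over all cells of a group, with 3′ counts not scaled for gene length, and ratios are log2 of CPM plus 0.5. A gene was counted as changed when it differed by 2-fold or more and reached 20 CPM in 1 of both groups. Across all genes tested, cycling cells were higher by this rule for 6.37%, 7.52% and 7.19%, and lower for 2.43%, 3.17% and 1.38%. Of the arterial genes of the calling list, 4 of 4, 3 of 4 and 4 of 4 were lower in cycling cells. These genes also made the arterial-positive shares above, so the counts restate that result and are not separate support for it. Gja4 (chromosome 4, 127311421 to 127314039, minus strand, GRCm38) stood at 358 CPM in cycling and 987 in quiescent cells at E15.5, 325 and 1106 at E18.5, then 442 and 892 at P8. Hey1 stood at 55.2 and 163, 180 and 338, and 120 and 241 CPM at the same ages.

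Arterial genes outside the calling list moved likewise. Of 9 such genes, 9, 9 and 6 reached the limit of 20 CPM, and 5, 5 and 3 of them were 2-fold lower in cycling cells with none higher. Their median log2 ratios were -1.07, -1.08 and -0.92, against -0.04, -0.06 and -0.06 over all genes tested. Cxcl12, the chemokine whose reporter was used for the sort (chromosome 6, 117168535 to 117181367, plus strand), stood at 376 CPM in cycling and 972 in quiescent cells at E15.5, 288 and 1364 at E18.5, then 351 and 1239 at P8. Its log2 ratios were -1.37, -2.24 and -1.82, all past 2-fold. Alox12, a lipoxygenase, had ratios of -2.06 and -1.76 at the 2 embryonic ages. The SoxF factor Sox17 had smaller ones, -0.91, -0.86 and -0.25, and did not reach 2-fold. With the Scrublet calls left out, the E18.5 ratio of Cxcl12 was -2.95 and that of Gja4 -2.51.

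The gCap genes separated by age. Aplnr was higher in cycling cells at E15.5, 113 against 38.0 CPM (log2 ratio 1.56). The ratio was 0.83 at E18.5, 70.9 against 39.6 CPM, and -0.19 at P8, 68.7 against 78.7 CPM. Kit went the same way, with log2 ratios of 0.85, 0.42 and -0.01. Gpihbp1 (chromosome 15, 75596628 to 75599481, plus strand) stood at 179 CPM in cycling and 128 in quiescent cells at E15.5, 608 and 427 at E18.5, then 916 and 973 at P8. Of 6 further gCap genes, 4, 5 and 5 reached 20 CPM, and of these 0, 0 and 1 were 2-fold higher and none lower. Their median log2 ratios were -0.12, 0.10 and -0.16, so as a list they showed no excess in cycling cells. The gene at P8 was Lpl, the lipase that Gpihbp1 anchors, at 66.9 against 30.6 CPM. Ctla2a, a gCap marker of unsettled role, had log2 ratios of 0.40, 0.15 and -0.25.

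Among aCap genes, Car4 (chromosome 11, 84957786 to 84966044, plus strand) was at 1.33, 46.8 and 233 CPM in cycling cells, against 0.216, 97.2 and 274 CPM in quiescent cells, and was 2-fold lower in cycling cells at E18.5. Ednrb was 2-fold lower in cycling cells at P8, 90.2 against 194 CPM. Of 7 aCap genes outside the calling list, only 2, 4 and 6 reached 20 CPM, and none of those passed 2-fold, with median log2 ratios of -0.32, -0.19 and -0.05. The lymphatic genes that passed were Mmrn1 (46.8 against 18.1 CPM) and Lyve1, a hyaluronan receptor (36.4 against 11.9 CPM), at E15.5, and Ccl21a (371 against 150 CPM) and Nrp2, a VEGF-C co-receptor (86.5 against 41.5 CPM), at E18.5. The Ccl21a level came from few cells, with a UMI in 12 of 397 thinned cycling cells (3.02%, 1.57% to 5.22%). In quiescent cells it had one in 117 of 7241 (1.62%, 1.34% to 1.93%), so the intervals overlapped. Lyve1 had a UMI in 68.8% of thinned cycling cells at E18.5 (64.0% to 73.3%) and 56.2% at P8 (50.6% to 61.6%). Among quiescent cells it had one in 42.3% (41.1% to 43.4%) and 43.4% (42.2% to 44.5%), so it was common in both groups and more frequent in cycling cells. Prox1 had a UMI in 2.27% and 0.300% of cycling cells, so most cycling cells with Lyve1 had no Prox1 UMI. In mesenchymal cells of E18.5 Lyve1 had a UMI in 1.91% (3 of 157).

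**Figure D4:**
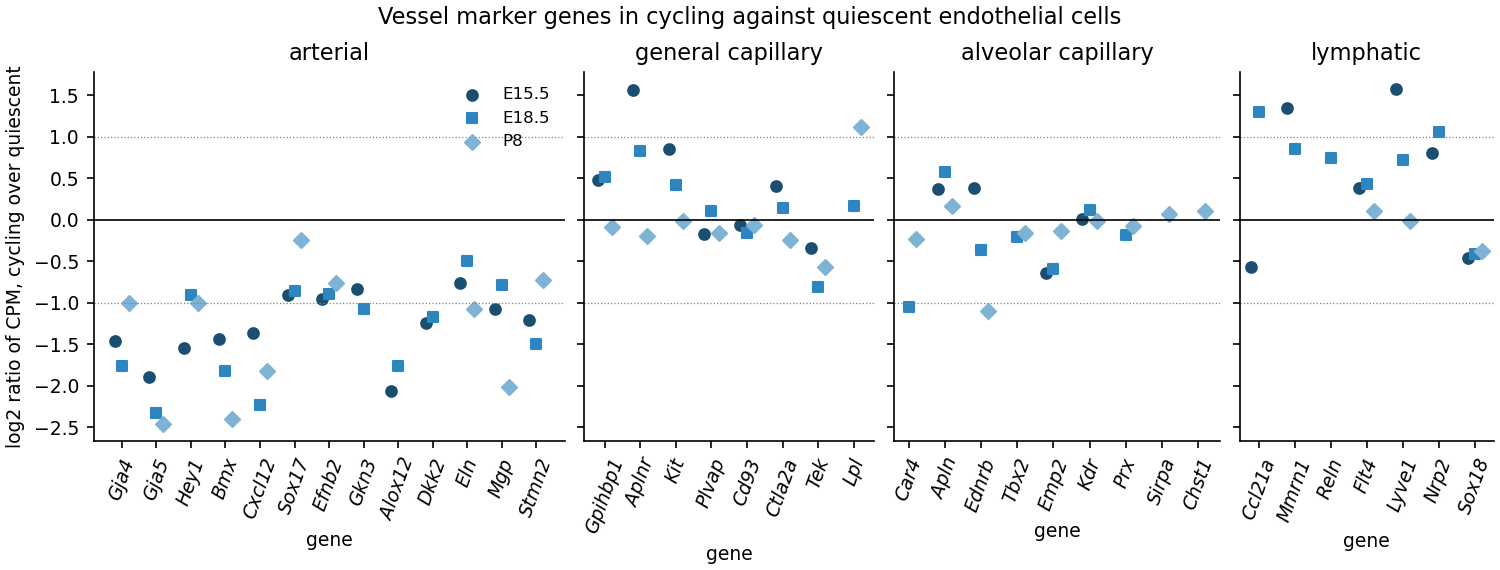
Log2 ratio of CPM (plus 0.5) in cycling over quiescent ECs for genes of the 4 identities, with a point per library where the gene reached 20 CPM; dotted lines mark 2-fold. Arterial genes lie below 0 at every age, between -2.47 and -0.25, whereas gCap and aCap genes lie on both sides of 0.

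Cycling cells that did carry arterial identity were mostly below quiescent arterial cells in the 9 arterial genes that had not been used to call them. Cells positive for 1 list and none of the other 4, venous and lymphatic included, were compared. The groups were not matched on the strength of the call. Of all arterial-positive cycling cells, 152 of 475, 42 of 139 and 59 of 145 held exactly 2 list UMIs. Of the quiescent ones, 714 of 4372, 745 of 5143 and 922 of 4819 did, so cycling cells were more often called at the limit. The part of this in the differences below was not tested. In arterial-only cells of E15.5 (414 cycling, 3956 quiescent), 6 of the 9 genes were lower in cycling cells with intervals that did not meet, 1 was higher and 2 overlapped. Over all genes of 20 CPM or more in these cells, 27.4% were lower and 22.9% higher by the same interval rule, which abundant genes pass more easily. The median log2 ratio of the 9 genes was -0.30, against -0.05 over all genes. The 6 were Cxcl12 at 971 CPM (945 to 998) against 1282 (1270 to 1294), Alox12 at 19.3 against 51.4, Sox17 at 738 against 970, Efnb2 at 196 against 246, Dkk2 at 202 against 249 and Stmn2, a microtubule regulator, at 1509 against 1752. The higher gene was elastin (Eln), with 1598 CPM (1564 to 1631) against 1319. The matrix protein Mgp at 503 against 506 CPM and Gkn3, an arterial marker, at 63.6 against 56.7 overlapped. Only Alox12 of the 9 differed by 2-fold, being lower, as were 0.524% of all genes, with 6.04% higher.

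At E18.5 (68 cycling cells) 5 of the 9 genes were lower and 2 higher by their intervals, against 13.6% and 17.2% of all genes, and the median log2 ratio was -0.60 against -0.02. Past 2-fold were 2 of the 9, both lower, against 3.1% of all genes lower and 8.52% higher. Among the lower genes were Cxcl12 at 1034 CPM (963 to 1110) against 2399 and Sox17 at 750 against 1152. Eln and Mgp were higher, with 3451 against 1977 and 702 against 512 CPM, but both are also genes of smooth muscle, and RNA of that tissue was higher in the same cells. The 8 fibroblast and smooth muscle genes summed to 362 CPM (320 to 408) in cycling and 41.03 in quiescent arterial-only cells, with Acta2, the actin of smooth muscle, at 214 against 13.8 CPM. Without the Scrublet calls, a setting chosen for these cells after seeing the data, 43 cycling cells were left. In them the muscle and fibroblast sum was 109 against 40.98 CPM, Eln 2974 (2809 to 3147) against 2011 CPM, and Mgp 603 (529.96 to 684) against 520.1 (510.1 to 530.3) CPM, so that Mgp then overlapped. The part of muscle RNA in the remaining Eln difference was not tested. At E15.5 the same sum was 77.5 in cycling and 75.9 CPM in quiescent arterial-only cells.

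At P8, 8 of the 9 genes reached 20 CPM, of which 6 were lower and 2 overlapped, against 10.7% of all genes lower and 14.5% higher. Their median log2 ratio was -1.08 against 0.00, and 4 were 2-fold lower and none higher, against 6.91% and 9.76% of all genes. The 35 arterial-only cycling cells held 280 CPM of Eln (231 to 336) against 1650 in quiescent arterial-only cells, 152 CPM of Mgp (117 to 195) against 1392, and 2.45 CPM of Gkn3, from 1 UMI, against 60.3. Cxcl12 stood at 893 against 2281 CPM, while Sox17 overlapped, with 775 against 731 CPM. The muscle and fibroblast sum was 9.81 against 59.0 CPM there, so it was the lower one in cycling cells. These 35 cells were set apart from the gCap-only cycling cells by some of the 9 genes and not by others. Cxcl12 was higher in arterial-only than in gCap-only cells by a log2 ratio of 2.07 among cycling and 2.39 among quiescent cells, and Stmn2 by 0.89 and 0.90. For Eln the ratios were 0.46 and 3.76 and for Mgp 1.86 and 5.62, and Gkn3 stood at 2.45 CPM in arterial-only and 3.85 CPM in gCap-only cycling cells. Called without Gja4, only 7 of 566 arterial-only cells of P8 were cycling, so the arterial identity of most of the 35 rested on that gene. In gCap-only cycling cells Cxcl12 was low at every age, 50.7, 60.1 and 212 CPM, and below the 139, 106 and 435 CPM of quiescent gCap-only cells. Ctla2a was lower in cycling gCap-only cells as well, 548 against 683, 991 against 1209, and 1552 against 2378 CPM. At E15.5 Cd93 was lower too, 361 (345 to 378) against 427 (408 to 447) CPM. Plvap (263 against 277), Tek (76.1 against 68.9) and Lpl (4.48 against 5.49) overlapped there. In cycling cells of E15.5 the log2 ratio of arterial-only over gCap-only was -1.05 for Ctla2a. It was -0.15 for Lpl, 0.00 for Cd93, 0.08 for Plvap and 0.47 for Tek, so these genes hardly set gCap-only cells apart.

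The cell cycle genes accompanied the 2 genes of the rule and, since the rule used the same cells, are given as a description. All 31 tested genes of a G2/M list of 32 and all tested genes of an S-phase list of 27 (27, 26 and 26) were 2-fold higher in cycling cells at each age. Ube2c, which marks mitotic proteins for destruction, stood at 924, 1183 and 1196 CPM in cycling cells and 24.6, 6.98 and 2.98 CPM in quiescent cells. Cdk1, the kinase that drives mitosis, stood at 532, 788 and 682 CPM, and Mcm5, a subunit of the replicative helicase, at 89.6, 114 and 102 CPM. In thinned cells the median was 18, 25 and 25 UMIs over the G2/M list and 7, 7 and 8 over the S-phase list. G2/M UMIs outnumbered S-phase UMIs in 73.1%, 73.8% and 69.97% of cycling cells, with overlapping intervals (70.7% to 75.4%, 69.2% to 78.1% and 64.7% to 74.8%). In arterial-only cycling cells this share was 79.5% (75.3% to 83.3%), 78.9% (67.6% to 87.7%) and 88.6% (31 of 35, 73.3% to 96.8%), and in gCap-only ones 72.3% (67.4% to 76.8%), 71.2% (63.2% to 78.4%) and 62.2% (69 of 111, 52.5% to 71.2%). The intervals overlapped at both embryonic ages and parted only at P8. The lists differ in length and the members were chosen on G2/M genes, so these shares do not count cells in a phase.

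Genes of late cell cycle are known to share the cell cycle genes homology region (CHR, TTTGAA or TTCGAA) and CCAAT boxes in their promoters, where the DREAM and MuvB complexes and NF-Y bind. The RefSeq promoters (GRCm38.p6, from 250 bases before to 50 after the transcription start) of the 2 genes of the rule and of Cdc20 (an activator of mitotic exit) and Plk1 (a mitotic kinase) are shown with that of Gja4 for contrast. Capitals mark CHR and CCAAT letters found on either strand, so TTCAAA and ATTGG are the same elements read backwards.
Top2a (chr11:99024140-99024439, minus strand): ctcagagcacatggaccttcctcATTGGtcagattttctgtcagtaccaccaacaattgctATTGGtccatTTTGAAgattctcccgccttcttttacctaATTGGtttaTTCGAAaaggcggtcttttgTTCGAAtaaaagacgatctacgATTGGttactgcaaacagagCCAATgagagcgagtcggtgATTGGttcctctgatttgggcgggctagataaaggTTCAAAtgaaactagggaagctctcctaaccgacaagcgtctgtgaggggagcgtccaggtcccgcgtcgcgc
Mki67 (chr7:135716330-135716629, minus strand): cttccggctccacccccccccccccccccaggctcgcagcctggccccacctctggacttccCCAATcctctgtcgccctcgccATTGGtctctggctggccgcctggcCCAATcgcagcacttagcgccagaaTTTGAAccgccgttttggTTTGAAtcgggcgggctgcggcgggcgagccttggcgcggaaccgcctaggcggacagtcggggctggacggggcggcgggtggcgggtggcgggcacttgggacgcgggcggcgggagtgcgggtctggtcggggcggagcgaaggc
Cdc20 (chr4:118437294-118437593, minus strand): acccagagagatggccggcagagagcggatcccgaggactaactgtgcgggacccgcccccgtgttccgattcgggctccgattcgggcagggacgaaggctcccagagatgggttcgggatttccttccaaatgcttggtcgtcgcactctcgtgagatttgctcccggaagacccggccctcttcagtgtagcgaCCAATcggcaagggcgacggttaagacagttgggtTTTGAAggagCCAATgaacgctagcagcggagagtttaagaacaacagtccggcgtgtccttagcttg
Plk1 (chr7:122159185-122159484, plus strand): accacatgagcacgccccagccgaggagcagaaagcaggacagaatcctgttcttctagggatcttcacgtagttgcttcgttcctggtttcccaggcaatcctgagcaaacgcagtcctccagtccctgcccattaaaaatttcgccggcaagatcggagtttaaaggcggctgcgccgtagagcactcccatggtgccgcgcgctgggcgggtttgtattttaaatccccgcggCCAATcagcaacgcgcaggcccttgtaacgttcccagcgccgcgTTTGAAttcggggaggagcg
Gja4 (chr4:127313990-127314289, minus strand): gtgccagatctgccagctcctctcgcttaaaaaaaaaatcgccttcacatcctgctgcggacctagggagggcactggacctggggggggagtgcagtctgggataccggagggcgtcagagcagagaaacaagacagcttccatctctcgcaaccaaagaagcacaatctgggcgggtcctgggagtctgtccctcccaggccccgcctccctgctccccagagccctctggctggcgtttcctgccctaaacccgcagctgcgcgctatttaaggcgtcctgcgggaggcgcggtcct

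The Top2a window held 4 CHR matches and 6 CCAAT matches, that of Mki67 2 and 3, that of Cdc20 1 and 2, and that of Plk1 1 and 1, while none was found in the Gja4 window. Of 29 G2/M genes with a window, 21 held a CHR match, 21 a CCAAT match and 17 both (58.6%). Of 22 matched S-phase genes, 4 held CHR and 14 CCAAT, and of 8 matched arterial genes, 1 and 2. Over all 27025 genes with a window the shares were 21.7% for CHR, 41.1% for CCAAT and 8.61% for both, each counted in any window of a gene. A match of letters is not a shown binding site, and these shares are a description of the lists.

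The genes that brake or start the cycle did not move as 1 group. Of 11 inhibitors, pocket proteins and antiproliferative genes, 7, 9 and 9 were tested, and 3 were 2-fold higher (Cdkn2c, Cdkn2d and the pocket protein Rbl1) and 1 was 2-fold lower in cycling cells at each age. The lower one was Cdkn1c, which encodes the CDK inhibitor p57 (chromosome 7, 143458339 to 143461050, minus strand). It stood at 268 CPM in cycling and 727 in quiescent cells at E15.5, 123 and 501 at E18.5, then 63.8 and 171 at P8. From E15.5 to P8 it fell by 2.06 on the log2 scale in cycling and by 2.09 in quiescent cells. Its log2 ratios of -1.44, -2.02 and -1.41 put the cycling cells below at each age. Within single identities the difference was not uniform. In arterial-only cells Cdkn1c was lower in cycling cells at each age, 398 against 823, 254 against 839 and 128 against 443 CPM. In gCap-only cells it stood at 194 against 388 CPM at E15.5, 98.5 (82.7 to 117) against 122 (113 to 131) at E18.5, where the intervals overlapped, and 50.8 against 76.7 at P8. In aCap-only cells, of which 15, 17 and 10 were cycling, it was lower at E15.5 (244 against 878 CPM) and overlapped later, with the cycling value the higher one, 80.9 against 76.1 and 78.3 (45.6 to 125) against 48.6 (40.9 to 57.3) CPM.

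Inhibitors of CDK4 and CDK6 stood on the other side. Cdkn2c, which encodes p18 (chromosome 4, 109660876 to 109667189, minus strand), was at 21.4 CPM in cycling and 0.747 in quiescent cells at E15.5, 94.3 and 1.71 at E18.5, then 169 and 7.57 at P8. Cdkn2d, which encodes p19, was at 86.9 and 29.8, 243 and 53.5, and 284 and 60.0 CPM. Cdkn2c had a UMI in 6.24%, 20.9% and 36.6% of thinned cycling cells and in 0.218%, 0.539% and 2.31% of quiescent cells. Its rise with age within cycling cells, a log2 ratio of 2.95 from E15.5 to P8, was seen in both single identities. It went from 33.6 CPM at E15.5 to 186 at P8 in arterial-only and from 14.7 to 186 CPM in gCap-only cycling cells. Cdkn1a, the p53 target p21, stood at 16.8 against 4.80 CPM at E15.5, under the limit of 20 CPM, and at 155 against 106 and 401 against 240 CPM later, within 2-fold.

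D-type cyclins, the partners of CDK4 and CDK6 in early G1, split by paralog. Ccnd1 was 2-fold higher in cycling cells at E15.5, 230 against 110 CPM, and within 2-fold at E18.5 (297 against 267 CPM) and P8 (381 against 347 CPM). In gCap-only cells of E15.5 it stood at 316 CPM in cycling and 314 in quiescent cells, and in arterial-only cells at 78.0 and 53.5 CPM. At E15.5 the cycling and quiescent levels were thus closer within an identity. At E18.5 those of arterial-only cells were further apart than over all cells, at 130 against 97.1 CPM. Ccnd2 was 2-fold lower in cycling cells at E15.5 (46.6 against 101 CPM) and E18.5 (32.6 against 102 CPM), and stood at 116 against 210 CPM at P8. Ccnd3 had log2 ratios of -0.21, -0.20 and -0.06. Of the E2F transcription factors, E2f1, E2f7 and E2f8 were 2-fold higher at all 3 ages, with E2f8 at 23.0 against 0.570 CPM at E15.5.

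**Figure D5:**
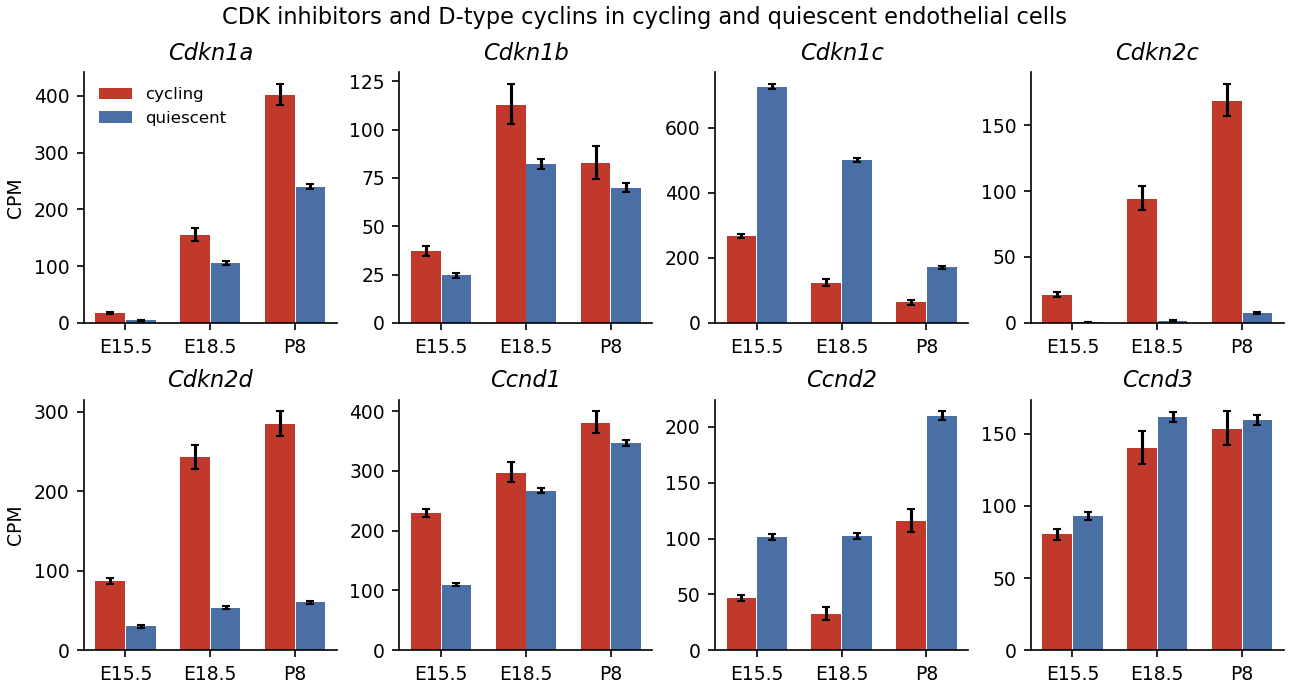
Levels (CPM) of CDK inhibitors and D-type cyclins in cycling (red) and quiescent (blue) ECs of the 1 library of each age, each panel on its own scale; whiskers are 95% Poisson intervals. Cdkn1c and Ccnd2 are lower and Cdkn2c and Cdkn2d higher in cycling cells in all 3 libraries.

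Between ages, about as many genes differed among cycling as among quiescent cells. From E15.5 to P8, 15.9% of tested genes were 2-fold higher and 5.01% lower in cycling ECs, and 14.4% and 5.47% in quiescent ECs. From E15.5 to E18.5 the shares in cycling ECs were 8.94% and 2.56%, and from E18.5 to P8 5.01% and 3.45%. In quiescent ECs they were 9.23% and 3.17%, and 4.35% and 3.9%. The median gene shifted by 0.25 on the log2 scale from E15.5 to P8 and by 0.20 from E15.5 to E18.5 in cycling cells, and centring on that median turned the 331 genes lower at P8 into 555. Capillary genes gained: 5 of 6 tested aCap genes outside the calling list and 4 of 5 such gCap genes were 2-fold higher at P8 than at E15.5 in cycling cells. In quiescent cells 5 of 6 and 5 of 5 were. Tbx2, a transcription factor of aCaps, went from 0.855 to 78.7 and 79 CPM in cycling cells. Plvap, a protein of endothelial diaphragms, went from 261 to 451 and 649 CPM.

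The arterial genes did not share 1 direction between ages. In cycling cells Gja5 went from 16.6 CPM at E15.5 to 22.7 and 7.61, Bmx from 25.9 to 14.7 and 6.71, and Dkk2, a Wnt antagonist, from 80.0 to 38.0 and 4.25 CPM. Efnb2, the arterial ephrin, rose from 105 to 194 and 333 CPM. Of the 9 arterial genes outside the calling list, 1 was 2-fold higher and 4 were 2-fold lower at P8 than at E15.5 in cycling cells, and 1 and 4 in quiescent cells.

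Aplnr had log2 ratios from E15.5 to P8 of -0.71 in cycling cells, within 2-fold, and 1.04 in quiescent cells. Its cycling over quiescent ratio thus fell by 1.75, the largest fall among genes that reached 50 CPM in either group at both ages once haemoglobin, mitochondrial, ribosomal and sex-linked genes and markers of other cells were left out. The haemoglobins fell further, Hbb-bt from 1.74 to -2.77. Next came Car2 (a cytosolic carbonic anhydrase, 65.0 against 21.5 CPM at E15.5 and 362 against 328 at P8), Piezo2 (a mechanosensitive channel, 77.7 against 26.1 and 136 against 123), Atp13a3 (a polyamine transporter, 59.8 against 120 and 33.8 against 167) and Fbln5 (an elastic fibre protein, 426 against 854 and 97.6 against 469). The ratio rose most for the mitotic genes Birc5, Ccnb2, Cdca3, Ube2c and Pimreg. Their cycling levels were within 2-fold at both ages, for example 574 CPM of Birc5 at E15.5 and 714 at P8, while the quiescent level of Birc5 went from 39.3 to 2.94 CPM.

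The cycle lists meant here are the rule genes, the S-phase and G2/M lists and a further list of cycling genes, not that of inhibitors such as Cdkn1c. Outside them, 2713 genes reached 50 CPM at all 3 ages, of which 917 were higher and 1134 lower in value in cycling cells of every library. Those with the highest mean ratio were Hist1h1b (a linker histone of S phase, 223 against 2.89 CPM at E15.5), Mxd3 (a MYC-family factor), Ska1 (a kinetochore protein), Ckap2l and Kif22 (spindle proteins), Lockd (a noncoding RNA next to Cdkn1b), Cdkn3 (a CDK phosphatase) and Cenpp (a centromere protein). Those with the lowest were Atp13a3, Thsd7a (a membrane protein of ECs), Cxcl12, Vwf (von Willebrand factor), Cdkn1c, Fbn1 (fibrillin 1), Mecom (an arterial transcription factor) and Hotairm1 (a noncoding RNA of the Hoxa cluster). Vwf stood at 54.3 against 131 CPM at E15.5, 65.2 against 239 at E18.5 and 33.8 against 151 at P8. Mecom stood at 157 against 341, 95.7 against 281 and 33.1 against 128 CPM.

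The genes that rose most from E15.5 to P8 in cycling cells were Sema3c (a secreted semaphorin, from 0.427 to 396 CPM), Fmo1 (a flavin monooxygenase, 1.04 to 357), Car4, Abi3bp, Adam23, Aard and Ntrk2 (a neurotrophin receptor). Each of these except Abi3bp also stood within 2-fold of its quiescent level at P8. Sftpa1, a surfactant gene, met the same rule, but its log2 ratio of 7.54 dropped to 0.54 without the single P8 cell that held 10 or more epithelial UMIs. The genes that fell most were Igfbp2, Serpinf1, Mdk (the growth factor midkine, from 261 to 31.2 and 7.83 CPM), Nme4 and Col18a1 (collagen XVIII, 281 to 88.1 and 10.97), with the predicted genes Gm10320, Gm10260 and Gm2000, which may share reads with near-identical copies and are uncertain.

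Signalling lists differed modestly with cycling. Over all genes tested, 2.43%, 3.17% and 1.38% were 2-fold lower in cycling cells. Of 10 Notch pathway genes, 8, 8 and 9 were tested, 2, 1 and 1 were lower and none higher. These were Jag1, an arterial Notch ligand, at E15.5 (59.2 against 172 CPM) and E18.5 (39 against 101 CPM), and Hey1 at E15.5 and P8. Hey1 is also of the arterial calling list. Within single identities of E15.5, Jag1 was within 2-fold. It stood at 152 against 232 CPM in arterial-only and 12.9 against 18.5 CPM in gCap-only cells. Of 10 BMP pathway genes, 9 were tested at each age, and 2, 1 and 0 were lower. Smad6 and Smad7, feedback inhibitors of BMP and TGF-beta signalling, were the ones at E15.5, with 29.0 against 71.0 and 75.9 against 186 CPM. None of 6 flow-responsive genes passed 2-fold, although Klf2, induced by shear stress, was lower in cycling cells at each age in value (512 against 906, 1473 against 2223 and 2787 against 3461 CPM). Kdr, the main VEGF receptor, had log2 ratios of 0.00, 0.12 and -0.02. For the receptors of CXCL12, Cxcr4 stood at 17.4 against 42.4, 17.2 against 34.7 and 43.4 against 74.4 CPM, and the scavenger receptor Ackr3 at 37.7 against 21.1, 82.5 against 48.4 and 139 against 112 CPM. The dissociation stress genes did not differ by 2-fold between cycling and quiescent cells, except Hspa1a at E15.5 (49.7 against 23.0 CPM), but all 8 were 2-fold higher at P8 than at E15.5 in both groups.

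RNA of other cell types in the members was measured on marker lists. Fibroblast and smooth muscle genes (8) summed to 42.8 CPM in cycling and 70.1 in quiescent cells at E15.5, 76.8 and 33.0 at E18.5, and 21.9 and 28.5 at P8. Acta2, of smooth muscle, stood at 39.7 against 10.3 CPM at E18.5, and its ratio turned negative without the Scrublet calls. The epithelial genes (6) summed to 7.41 and 6.41 CPM at E15.5, 739 and 148 at E18.5, and 2443 and 288 at P8. At E18.5 and P8 nearly all of it was surfactant Sftpc from 1 cell in each library, with 2897 of 2951 UMIs at E18.5 and 10797 of 10851 at P8. The immune genes (6) summed to 10.4 and 5.74, 79.4 and 22.5, and 102 and 31.5 CPM, with the leukocyte gene Ptprc at 0.473 CPM or less in all cycling groups. At E18.5 only 1 of the 6 reached 20 CPM. Without cells of 10 or more epithelial UMIs, the E18.5 ratio of the immune list gene Lyz2 turned negative. So did that of Cd74, also of this list, from E15.5 to P8 (values in the closing section). The erythroid genes (5), mainly haemoglobins, summed to 1055 and 315 CPM at E15.5, 587 and 1275 at E18.5, and 266 and 1051 at P8. Of the systemic capillary genes (8), Fabp4, a fatty acid carrier, was 2-fold higher in cycling cells at P8, 263 against 63.8 CPM, from 5 of 333 thinned cells with a UMI. The part of these cells in the results above was not tested beyond the values given without Scrublet calls and without epithelial-rich cells.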

How the data were processed

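Droplet 3′ libraries were read as deposited UMI counts per gene and barcode. Per the file headers, the authors made the counts of the 3 sorted libraries with Cell Ranger 3.0.2, while the submitters' processing notes name Cell Ranger 3.1, Seurat 3.2.2 and the build mm10 (GRCm38). The deposited counts are not normalized. The libraries held 117522172, 65056925 and 63746333 UMIs (E15.5, E18.5, P8). Groups followed the labels. The members, the vessel and pathway lists and the settings were chosen with earlier results of these data known.

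Cells were thinned without replacement to 3000 UMIs (seed 1) for class calls. UMIs were summed per group for CPM, and log2 ratios used a pseudocount of 0.5 CPM. With 1 library per age no p-value was computed. Intervals are at 95% and cover counting error only, and the interval of a difference joins the outer bounds of both shares. Cells were clustered by no method. Doublets were scored with Scrublet in Scanpy 1.11.5 and left out only in an alternative. Its own threshold marked 3.57% of cells at E15.5 and none at the later ages, where the top 7% were taken. Python 3.11.15, NumPy 2.4.6, SciPy 1.17.1 and pandas 2.3.3 were used, and the scripts were tested on simulated data. Gene positions came from a GRCm38 annotation.

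Named genes were members of the lists and, at 50 CPM or more in either group, the 8 highest and 8 lowest mean ratios of cycling over quiescent cells with 1 direction in all 3 libraries and outside the cycle lists, the 8 largest changes each way from E15.5 to P8, and the 5 ratios each way that differed most between these ages. Mitochondrial, ribosomal protein, haemoglobin and sex-linked genes, Gm42418 and markers of other cells were left out of those ranks. Alternatives changed the limits of the rule, the thinning, the class limit, the comparison group, doublets, pseudocount, scaling and the CPM minimum. The E13.5 and whole-lung libraries entered no comparison by age.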

Additional observations from a re-analysis of the deposited data

Results flagged for a closer look

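The haemoglobin transcripts, which red blood cells make, stood on different sides by age. The log2 ratio of cycling over quiescent ECs at E15.5 was 1.57 for Hba-a1, 1.83 for Hbb-bs and 1.74 for Hbb-bt. At E18.5 it was -1.36 for Hbb-bs and -1.03 for Hbb-bt, and at P8 -1.23 for Hba-a1, -2.34 for Hbb-bs and -2.77 for Hbb-bt. These genes were singled out because the sign changed between libraries, and the difference between ages was not tested.

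Libraries outside the comparison by age also held cycling ECs by the same rule. There were 22 among 168 ECs sorted at E13.5, 184 among 1824 ECs of the whole E18.5 lung labelled control and 286 among 2721 of that labelled null. Cxcl12, the targeted gene, went against these labels. It had a UMI in 1.91% of quiescent ECs (27 of 1412) and in 0 of 3134 mesenchymal cells of the library labelled control, which allows up to 0.0957%, and in 35.4% of quiescent ECs (725 of 2047) and 309 of 3331 mesenchymal cells of that labelled null. The names of the whole-lung data also give the genotypes the other way round, so no direction is drawn between these libraries. At 3000 UMIs, 16 of 22 cycling ECs of E13.5 (72.7%, 49.8% to 89.3%) and 101 of 107 quiescent ECs (94.4%, 88.2% to 97.9%) were arterial-positive, with overlapping intervals. At the same depth, 9.84% of cycling and 33.7% of quiescent ECs of the library labelled control were arterial-positive, and 14.7% and 53.8% of that labelled null. In these lungs, where ECs were not sorted on Cxcl12, cycling ECs thus also had the lower arterial share in value. The gCap-positive shares were 78.1% and 70.9% in the library labelled control, and 73.1% and 58.04% in that labelled null.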

How the results depend on the processing

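Age and library cannot be told apart, cells of 2 to 4 lungs were mixed, and depth limits the rarer classes. No paired analysis was possible because each age had 1 library. The order of the results below is E15.5, E18.5, P8. The cycling share was 17.7%, 4.99% and 4.68% with 1 Top2a UMI, 12.4%, 3.59% and 3.44% with 3 Top2a and 2 Mki67 UMIs, 5.51%, 2.61% and 2.04% at 3000 UMIs, and 3.77% and 3.49% at the later ages without Scrublet calls. The arterial difference at E15.5 was -34.9 points against all other ECs and -34.2 at 2000 UMIs, and without Gja4, a setting chosen after seeing the data, it was -17.2, -24.1 and -14.7. The gCap difference at E15.5 was 8.11 points at 2000 UMIs and 7.86 with 3 UMIs required, where that of P8 turned to -1.49. The cycling share of arterial-positive ECs was 3.41%, 1.31% and 1.15% with the rule at 3000 UMIs, 7.20%, 2.05% and 2.07% with 3 UMIs required, 5.94% (E15.5) and 2.03% (P8) without Gja4, and 1.78% and 2.20% at the later ages without Scrublet calls. That of gCap-positive ECs was 8.46%, 3.67% and 2.11% at 3000 UMIs, and at P8 4.26% with 3 UMIs required and 4.14% without Scrublet calls. That of aCap-positive ECs was 7.39%, 2.49% and 1.30% at 3000 UMIs, 8.89% and 3.31% at the embryonic ages with 3 UMIs required, and 3.66% and 2.30% at the later ages without Scrublet calls. At E15.5, lymphatic-positive ECs were at 8.57% and venous-positive ECs at 8.16% with the rule at 3000 UMIs. Without a CPM minimum 697, 1079 and 909 genes were 2-fold higher in cycling cells and 430, 716 and 485 lower, 2180 higher and 1229 lower at P8 than at E15.5, 1522 and 672 at E18.5 than at E15.5, and 1029 and 1157 at P8 than at E18.5, since more genes are counted. Genes lower in cycling cells numbered 90 at E15.5 with a pseudocount of 5 CPM, and at P8 159 with the mean of per-cell CPM and 147 without Scrublet calls. Centred on the median ratio, 555 genes were lower at P8 and 287 at E18.5 than at E15.5. With the mean of per-cell CPM the P8 over E18.5 ratio turned to 0.036 for Hba-a1 and 0.27 for Hbb-bs. Without Scrublet calls Acta2 turned to -0.42 (cycling over quiescent, E18.5) and -0.79 (E18.5 over E15.5). Without cells of 10 or more epithelial UMIs, also chosen after seeing the data, the E18.5 ratio of cycling over quiescent turned to -2.08 for Lyz2, -0.26 for Sftpa1 and -0.28 for Sftpc, that of P8 to -0.44 for Sftpa1, P8 over E15.5 to -1.48 for Cd74, and P8 over E18.5 to -0.75 for Sftpa1 and -0.035 for Sftpc. Where a value moved by more than its interval, the cause was not tested.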
